A study of Mus musculus with 2 samples.

Results

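Cycling epithelial cells of the embryonic day 14 (E14) mouse utricle were taken from 1 droplet-based scRNA-seq library as cells with at least 3 captured transcript molecules, counted by their molecular barcodes and called UMIs, of Mki67 and Top2a together, at least 2 UMIs of Epcam and none of Col1a2. The rule found 296 cells, which were 2.55% (exact binomial interval 2.27 to 2.86) of the 11588 kept E14 cells and 11.2% (10.0 to 12.5) of the 2642 kept cells with Epcam and no Col1a2. They were set against the 2087 of these cells that had no UMI of Mki67 or Top2a, called negative epithelial cells here, while 259 cells with 1 or 2 such UMIs lay between. The series held 15669 kept cells from 1 E14 and 1 P2 library, both from wild-type mice (C57BL/6J by the methods) with no treatment named. The labels describe utricles freed of the otolithic membranes, detachment of the sensory epithelium with thermolysin and dissociation with Accutase. The methods name several embryos for tissue collection in general, but not how many gave this library, which is unreplicated. Because the groups were chosen on Mki67, Top2a, Epcam and Col1a2 and come from 1 library, every difference between them is a description without a test, and the intervals cover counting error only.

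The utricle is a vestibular organ in which mechanosensory hair cells (HCs) sit among supporting cells (SCs), with transitional and dark-cell epithelium around the sensory macula. In the embryo HCs and SCs arise from dividing Sox2-positive precursors, and HCs leave the cell cycle as they differentiate. A dividing cell copies its DNA in S phase with genes switched on by E2F factors, then assembles a spindle in G2/M with genes held back in resting cells by the DREAM complex and released through B-Myb and FoxM1.

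Members held more UMIs per cell than negative cells. Their medians were 20531.5 UMIs (range 2047 to 151624) and 4803 genes, against 8804 UMIs and 3021 genes. A floor of 3 UMIs favours deep cells, so cells were also thinned to 5500 UMIs, which kept 282 members and 1578 negative cells. Shares are at full depth unless they are called thinned. Mitochondrial UMIs had medians of 2.38% and 2.64%. Of the members, 81 (27.4%) lay among the 1450 E14 cells with the highest doublet scores, compared with 152 (7.28%) of the negative cells, and they were kept. The rule itself left out 270 of the 566 cells that had the Epcam and cycling UMIs, because they held Col1a2, 48 of them a single UMI. The 2 libraries shared 23 barcodes, 1 of them a member.

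UMIs of other cell types were few but not absent. The 11 mesenchymal markers summed to 95.9 CPM (UMIs per 1000000 UMIs of the group) in members and 193 CPM in negative cells, with 1 marker, Col1a2, at 0 in both by the rule, and 49.0% of members held at least 1 such UMI. The 9 immune markers summed to 130 and 50.1 CPM, and 5 members held 97.1% of the 1107 immune UMIs, leaving 3.81 CPM in the rest. The 7 red blood markers summed to 2660 and 7579 CPM, and 1 member held 13364 of 22673 UMIs. The endothelial (25 and 30.2 CPM), neuronal (11.5 and 22.8), melanocyte (7.63 and 43.5), epidermal (7.98 and 22.1) and pericyte (29.2 and 27.1) lists were low in both groups, with 2 of 6 neuronal, 2 of 5 epidermal and 1 of 6 pericyte markers at 0 in the members. The 7 glial markers, some of which (Sox10, Fabp7 and Erbb3) otic epithelium also makes, summed to 206 and 236 CPM. The part of these cells in the differences described here was not tested beyond the settings given with the processing.

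The genes of the rule varied widely among the members. Mki67, a protein that coats mitotic chromosomes (chromosome 7, 135689784 to 135716361, minus strand, GRCm38), had a median of 3 UMIs per cell (0 to 23), and 28 members had none. Top2a, the topoisomerase that untangles sister DNA (chromosome 11, 98992943 to 99024189, minus strand), had a median of 6.5 UMIs (0 to 35), and 19 members had none. Epcam, an epithelial adhesion protein (chromosome 17, 87635979 to 87651129, plus strand), had a median of 48.5 UMIs (2 to 220), far above its floor of 2, and its level was 2155 CPM against 2022 CPM in negative cells. Keratins, which the rule did not name, were used to check the epithelial label. Krt8 and Krt18, the keratins of simple epithelia, were found in 85.1% and 89.7% of thinned members, compared with 2.56% and 15.1% of negative mesenchymal cells, although Pax8 was at 0 in all 3 groups. Other markers of otic epithelium were found in few thinned members, Cdh1 in 10.3%, Lmx1a in 8.16% and Pax2 in 3.55%. In negative mesenchymal cells these were 2.02%, 0.252% and 0.180%.

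Among 11824 genes with at least 100 UMIs over both groups, 264 (2.23%) were at least 2-fold higher in the members and 81 (0.685%) at least 2-fold lower, after 5 CPM had been added to each level. The median log2 ratio over all of them was -0.08. Of 25 gene lists, those of DNA replication and mitosis stood highest and those of nonsensory epithelium and hair cells lowest. Lists overlap, and the 4 rule genes were left out of every list. The number of higher genes was 136 to 341 under the other settings tried, but that of lower genes was 30 to 491. The latter changed most in the settings on UMIs of other cell types, the value added, doublets, depth and Sox2. Those of these settings that removed cells also left fewer members, 36 to 215 in place of 296. The cause of the changes was not tested. The 491 stood in cells without UMIs of markers of other cell types, where only 5437 genes were tested.

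**Figure D1:**
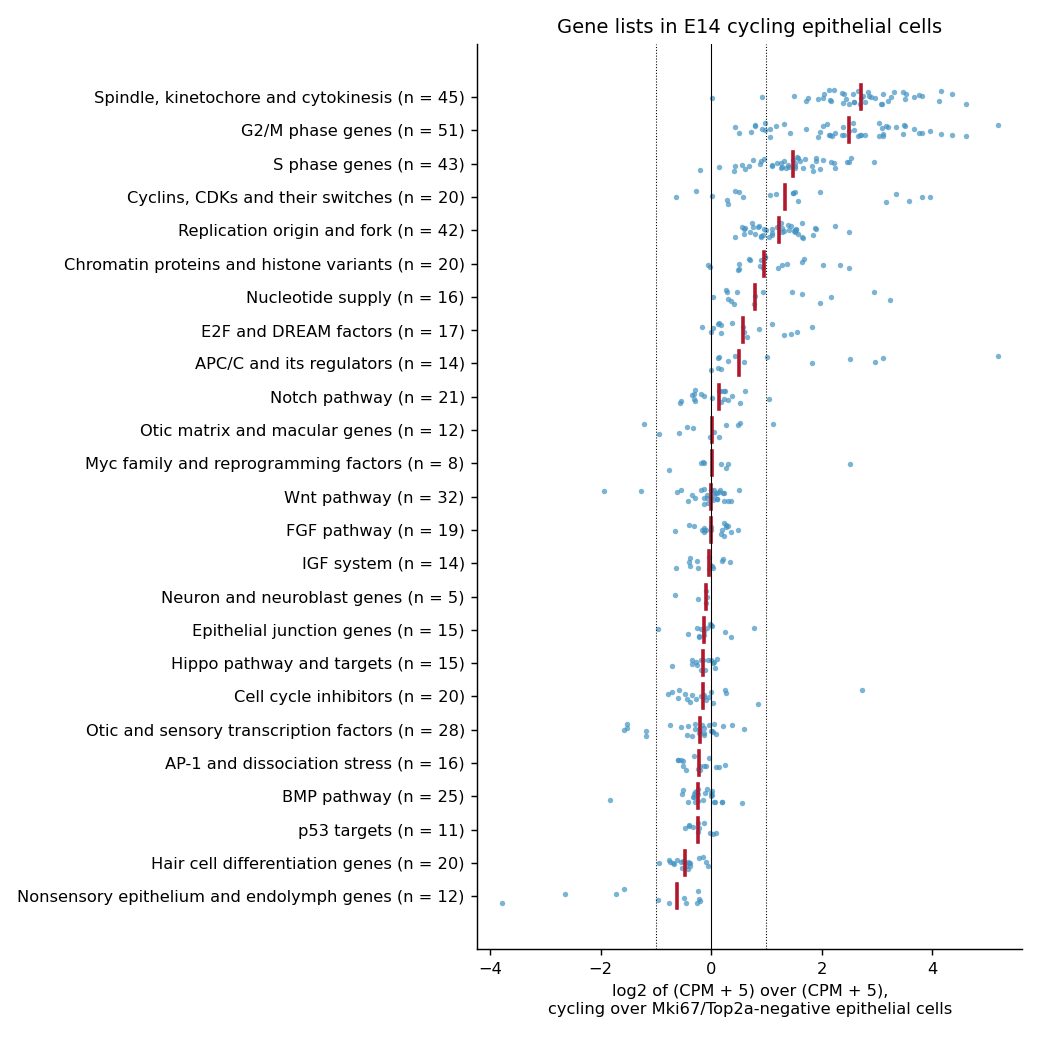
Each point is a gene with at least 100 UMIs, placed by its log2 ratio of cycling over negative epithelial cells with 5 CPM added (x axis), and red bars are the list medians. Dotted lines mark 2-fold. Medians run from 2.71 for spindle genes to -0.62 for nonsensory epithelium genes, and the signalling lists lie around 0.

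S phase genes were higher in most cases. Of the 43 genes of the S phase list, 32 were at least 2-fold higher, none was 2-fold lower, and the median log2 ratio was 1.48. The most abundant was Nasp, a histone chaperone, at 303 CPM in members and 122 CPM in negative cells (ratio 2.49, exact interval 2.36 to 2.63). Tyms, thymidylate synthase, followed at 156 and 31.0 CPM (ratio 5.03, 4.60 to 5.51). Gmnn, which keeps DNA from being copied again in the same cycle, had 128 and 18.8 CPM (6.82-fold). Slbp, the histone mRNA-binding protein, differed less, with 116 and 70.9 CPM (1.64-fold). The largest ratios of the list belonged to Rrm2, the small subunit of ribonucleotide reductase, with 59.4 and 3.31 CPM (17.9-fold, 14.2 to 23), and to Rad51ap1, a DNA repair protein, with 37.2 and 2.29 CPM (16.2-fold). Atad2, a chromatin ATPase, was 7.22-fold higher. At the lower end Brip1, a DNA helicase named here after its value was seen, had a log2 ratio of -0.20.

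Replication and nucleotide genes gave a similar picture at smaller ratios. In the replication origin and fork list 26 of 42 tested genes were 2-fold higher and none lower (median log2 1.23). Clspn, a checkpoint mediator at the fork, had 43.9 CPM against 5.36 CPM (8.19-fold), Mcm5 of the replicative helicase 39.0 against 6.87 CPM (5.67-fold, 4.70 to 6.87), and Lig1, which joins Okazaki fragments, 112 against 26.7 CPM (4.18-fold). Tipin, a fork protection factor, was 2.68-fold higher, whereas Rpa3, a subunit of the single-strand binding complex, was 1.49-fold higher. In the nucleotide list 6 of 16 genes passed 2-fold (median 0.79). Tk1, thymidine kinase, led with 70.7 against 3.07 CPM (23.1-fold), followed by Rrm2 and Tyms and by Rrm1 (4.91-fold) and Dut, the dUTPase, at 337 against 105 CPM (3.21-fold). Dctpp1 (1.97-fold) and Paics, a purine synthesis enzyme (1.40-fold), stayed below 2-fold.

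G2/M and spindle genes had the largest ratios. Of 51 tested G2/M genes 43 were at least 2-fold higher and none lower (median log2 2.48), and of 45 spindle, kinetochore and cytokinesis genes 43 were higher (median 2.71). Ube2c, the ubiquitin-conjugating enzyme of the anaphase-promoting complex (APC/C), had 532 CPM in members and 9.81 CPM in negative cells (54.2-fold, 47.6 to 62.0). Cenpf, a kinetochore protein, had 327 and 8.63 CPM (37.9-fold), Birc5, the survivin subunit of the chromosomal passenger complex, 266 and 8.30 CPM (32.1-fold), and Nusap1, a spindle protein, 131 and 2.62 CPM (50.1-fold). Prc1, which bundles the central spindle, was 36.4-fold higher, Cenpa, the centromeric histone, 16.2-fold, Tpx2 28.9-fold and Cdca8 22.3-fold. Other abundant genes of these lists had smaller ratios. Hmgb2, a chromatin protein, had 1597 and 281 CPM (5.67-fold), Jpt1 428 and 216 CPM (1.98-fold), and Tubb4b, a tubulin, 591 and 356 CPM (1.66-fold). Bub3, a spindle checkpoint protein, was level at 563 and 559 CPM (ratio 1.01, 0.975 to 1.04) in the main comparison. Under the other settings its log2 ratio lay between -0.04 and 0.89.

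The promoters of the most abundant S phase and G2/M genes are shown because the G2/M genes are known for a CHR element (TTTGAA) near CCAAT boxes and S phase genes for E2F sites (TTTGGCGC, TTTCGCGC, TTTGCCGC or TTTCCCGC). Windows run from 250 bases before to 50 after the RefSeq start site in GRCm38.p6, on the strand of the gene, and capitals mark any of these words or its reverse complement.
Nasp (chr4:116627902-116628201, minus strand): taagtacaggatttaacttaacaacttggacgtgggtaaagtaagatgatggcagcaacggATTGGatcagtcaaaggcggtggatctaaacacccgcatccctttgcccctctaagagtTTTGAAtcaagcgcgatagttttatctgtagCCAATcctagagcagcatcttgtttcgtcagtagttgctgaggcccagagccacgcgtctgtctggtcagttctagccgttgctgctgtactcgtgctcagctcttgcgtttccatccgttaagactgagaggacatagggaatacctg
Tyms (chr5:30073576-30073875, minus strand): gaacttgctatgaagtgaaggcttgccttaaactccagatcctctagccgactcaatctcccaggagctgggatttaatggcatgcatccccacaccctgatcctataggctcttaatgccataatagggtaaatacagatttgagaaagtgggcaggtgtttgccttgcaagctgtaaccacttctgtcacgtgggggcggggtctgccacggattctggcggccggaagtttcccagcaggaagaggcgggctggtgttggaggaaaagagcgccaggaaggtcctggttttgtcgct
Hmgb2 (chr8:57511593-57511892, plus strand): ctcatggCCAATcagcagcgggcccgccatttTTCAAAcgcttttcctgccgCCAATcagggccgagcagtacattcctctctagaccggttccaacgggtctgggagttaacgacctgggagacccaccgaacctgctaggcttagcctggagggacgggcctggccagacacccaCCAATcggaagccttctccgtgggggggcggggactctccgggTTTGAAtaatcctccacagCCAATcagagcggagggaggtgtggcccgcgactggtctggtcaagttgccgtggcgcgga
Tubb4b (chr2:25224653-25224952, minus strand): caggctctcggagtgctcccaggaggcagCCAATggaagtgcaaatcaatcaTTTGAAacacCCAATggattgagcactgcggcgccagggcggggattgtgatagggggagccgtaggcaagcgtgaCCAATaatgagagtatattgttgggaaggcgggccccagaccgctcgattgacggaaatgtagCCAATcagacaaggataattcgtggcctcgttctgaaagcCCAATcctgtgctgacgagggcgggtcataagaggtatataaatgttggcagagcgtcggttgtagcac
The Hmgb2 window held 2 CHR words and 4 CCAAT words, the Tubb4b window 1 and 5, the Nasp window 1 and 2, and the Tyms window none, and no E2F word was in any of the 4. Over the lists, a CHR word was in 64.0% of the 50 windows of 45 matched G2/M genes and in 72.1% of the 43 windows of 39 spindle genes, compared with 17.6% of the 34 windows of 31 matched S phase genes and 17.9% of all 32851 windows. CCAAT words were in 74.0%, 72.1%, 67.6% and 37.4%. E2F words were in 6%, 9.30%, 35.3% and 2.26%, and in 36.6% of 41 windows of replication genes. A match describes letters in these windows and is not a bound site.

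Cyclins and their kinases divided by phase. Of 20 genes in the list 12 were 2-fold higher and none lower (median log2 1.33). Cdk1, the mitotic kinase, had 181 CPM against 6.99 CPM (25.9-fold, 22.1 to 30.5), Ccna2 88.3 against 1.68 CPM (52.7-fold), Ccnb1 72.6 against 1.51 CPM (48.0-fold) and Ccnb2 100 against 5.32 CPM (18.8-fold). Their binding partner Cks2 was 10.7-fold and Cks1b 2.31-fold higher. Ccnd1, a D cyclin of G1, had 347 and 230 CPM (1.51-fold), and its kinase Cdk4 642 and 517 CPM (1.24-fold). Among further cyclins, named after their values were seen, the D cyclins Ccnd2 and Ccnd3 had ratios of 0.823 and 0.623, while the E cyclins of the G1/S transition, Ccne1 (22.8 and 4.99 CPM, 4.56-fold) and Ccne2 (12.9 and 1.27 CPM, 10.2-fold), were higher.

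Of 14 APC/C genes 6 were 2-fold higher (median 0.51), among them Cdc20, its mitotic activator (14.5-fold), Pttg1, securin (9.64-fold), Fbxo5, its interphase inhibitor (11.1-fold), and Ube2s (2.04-fold), while the subunit Anapc13 was at 195 and 179 CPM. Of 17 E2F and DREAM factors 5 were higher (median 0.57). The repressors E2f8 (15.3 and 0.695 CPM) and E2f7 (10.9 and 0.450 CPM) had ratios of 21.9 and 24.3 against low levels in negative cells. The activators E2f1 and Foxm1 were 4.24-fold and 4.91-fold higher. With 5 CPM added the log2 ratios lay closer, at 1.83 for E2f8, 1.55 for E2f7, 1.32 for E2f1 and 1.45 for Foxm1. Rbbp4, Tfdp2 and E2f5, which are made throughout the cycle, had ratios of 1.14, 0.877 and 1.03, and Tfdp1 was 1.56-fold higher.

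Inhibitors of the cycle mostly differed little in the main comparison, but some were lower under other settings. Only Cdkn3, a phosphatase known as a mitotic gene, was 2-fold higher among 20 tested (39.4 and 1.72 CPM, 23-fold), none was 2-fold lower, and the median was -0.15. Cdkn1c, the CDK inhibitor p57, was at 369 CPM in members and 606 CPM in negative cells (ratio 0.610, 0.587 to 0.634), Btg2 at 532 and 800 CPM (0.665) and Gadd45g at 164 and 284 CPM (0.577). Gas1 (656 and 670 CPM, 0.979) and Klf4 (172 and 142 CPM, 1.21) were close to level, and Cdkn1b, the p27 inhibitor known to hold SCs out of the cycle, was at 69.6 and 68.1 CPM (1.02). The pocket protein Rbl1 was 2.57-fold higher before, and below 2-fold after, the 5 CPM had been added. Under the other settings the lowest log2 ratios were -2.33 for Gadd45g, -1.59 for Cdkn1c and -1.13 for Btg2. The highest were -0.56, -0.18 and -0.30.

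Histone genes were higher as a group. Of 67 clustered histone genes, 33 were tested, 22 were 2-fold higher, none lower, and their sum was 2522 CPM in members and 982 CPM in negative cells. Hist1h2ap had 593 and 40.4 CPM (14.7-fold), Hist1h1b, a linker histone, 293 and 17.9 CPM (16.4-fold) and Hist1h2ae 308 and 29.2 CPM (10.5-fold). Most such transcripts lack a poly(A) tail and are captured only in part by this method. Of 20 chromatin proteins and histone variants 8 were higher (median 0.96), with H2afz at 2504 and 803 CPM (3.12-fold), H2afx at 471 and 89.9 CPM (5.25-fold), Uhrf1, which copies DNA methylation, at 40.9 and 6.34 CPM (6.46-fold) and Lmnb1 at 170 and 49.4 CPM (3.44-fold). The replacement histones H3f3a (0.988) and H3f3b (0.967) were level, and Hmgb1 was 1.87-fold higher. Outside the cell cycle lists, Pclaf, a partner of PCNA, had the largest log2 ratio with 5 CPM added (4.54, from 478 and 15.7 CPM). Knstrn, Pbk, Esco2, Cenpm and Ska1, genes of mitosis or cohesion, had log2 ratios between 2.76 (Ska1) and 3.38 (Pbk), and the noncoding Lockd was at 106 and 10.3 CPM (10.3-fold).

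Per cell, the members carried both programmes in differing proportion. At 5500 UMIs they held a median of 12 S phase UMIs (highest 60) and 42.5 G2/M UMIs (highest 170), compared with 4 and 8 in negative cells. At least 10 S phase UMIs were found in 184 of 282 members (65.2%) and at least 10 G2/M UMIs in 276 (97.9%), in 182 both and in 4 neither. S phase UMIs outnumbered G2/M UMIs in 43 members (15.2%). In negative cells this held for 12.9%. Mki67 and Top2a are themselves G2/M genes. Among negative cells 101 of 1578 (6.4%) held at least 10 S phase UMIs and 591 (37.5%) at least 10 G2/M UMIs, which shows that the negative group is not free of S phase transcripts. The clusters of points overlap and no phase was assigned to a cell.

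**Figure D2:**
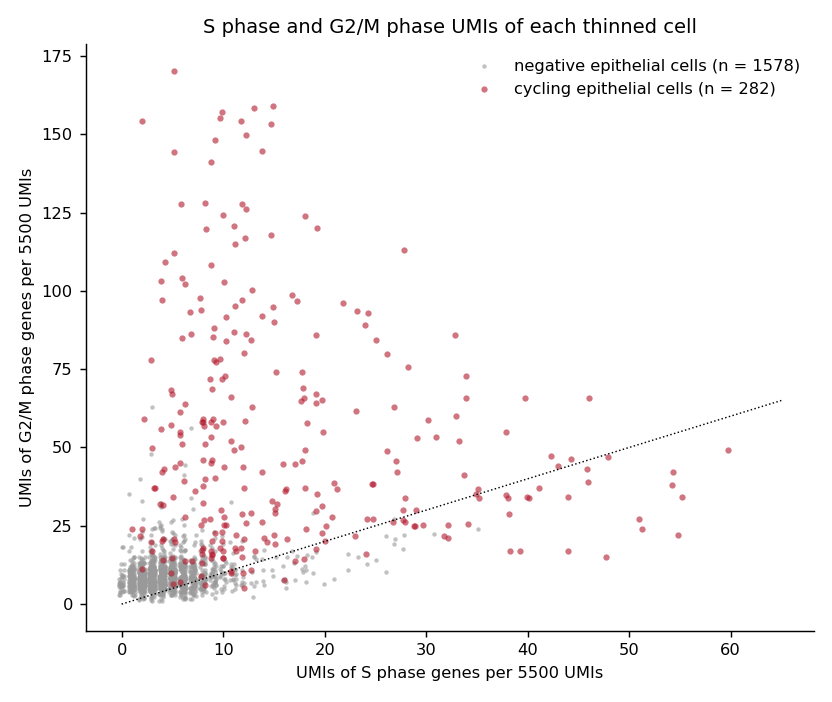
Each point is a cell thinned to 5500 UMIs, with its S phase UMIs (x axis) and G2/M UMIs (y axis, Mki67 and Top2a left out), moved by less than 1 UMI at random to separate ties, and the dotted line marks equal numbers. The 282 members (red) spread along both axes from medians of 12 and 42.5 UMIs, and the 1578 negative cells (grey) lie near medians of 4 and 8.

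Levels differed along the number of Mki67 and Top2a UMIs, and the floor of the rule fell differently for each gene. The 61 cells with 2 UMIs, just outside, had 58.8 CPM of Cdk1, 41.7 CPM of Ccnb1 and 4199 CPM of the summed G2/M list, and the 35 cells with 3 UMIs, just inside, had 51.2, 26.3 and 4588 CPM. In the 29 members with 24 or more UMIs these were 278, 122 and 10715 CPM. The S phase sum was 858 CPM in negative cells, 1745 CPM (1661 to 1831) at 2 UMIs, 2166 CPM (2057 to 2279) at 3, 2599 CPM at 4 to 5 and 2400 CPM at 24 or more. It thus differed across the floor and did not go on with the G2/M sum beyond it. Cdkn1c was 606 CPM in negative cells, 457 CPM (415 to 503) at 2 UMIs, 325 CPM (284 to 371) at 3, 408 CPM at 4 to 5, 407 CPM at 6 to 11, 367 CPM at 12 to 23 and 283 CPM at 24 or more, with no steady order within the members. Ccnd1 was 230 CPM in negative cells and between 287 and 410 CPM in the members' bins, in no order.

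**Figure D3:**
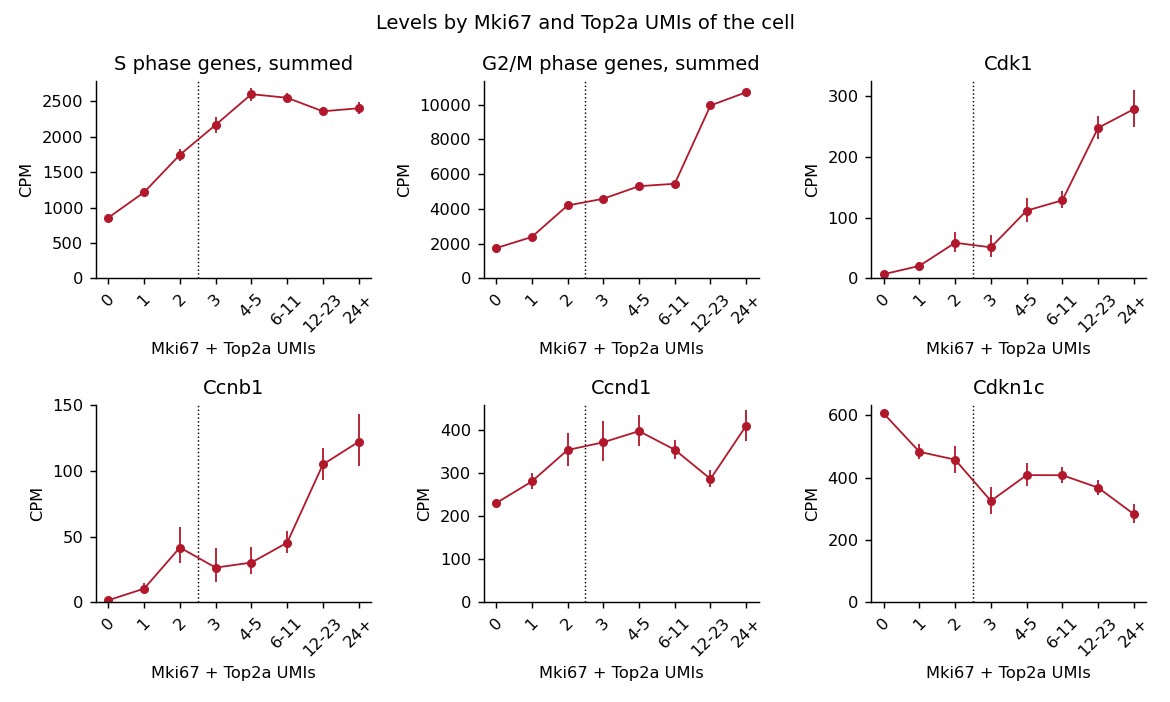
Levels in CPM (y axes, from 0) of the summed S phase and G2/M lists and of Cdk1, Ccnb1, Ccnd1 and Cdkn1c in Epcam-positive cells without Col1a2, by Mki67 plus Top2a UMIs per cell (x axes), with exact Poisson intervals as bars and the floor of the rule as a dotted line. Cdk1 runs from 6.99 to 278 CPM and Cdkn1c from 606 to 283 CPM.

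The members were then ordered by the share of G2/M UMIs among their S phase and G2/M UMIs, and the 94 cells with the highest share (85.7% to 98.7%) were set against the 94 with the lowest (23.8% to 64.3%). This share is a range and not a type, since 25 and 18 cells lay within 2 percentage points of the upper and lower limit. Ccnb1 was at 158 and 16.4 CPM and Ube2c at 1222 and 98.6 CPM, whereas Rrm2 was at 24.8 and 90.9 CPM, Tyms at 97.5 and 208 CPM and Slbp at 62.2 and 169 CPM, as the order itself fixes. Of genes on no list, Knstrn (154 and 24.8 CPM), Kpna2, a nuclear import receptor (88.3 and 14.4 CPM), Arl6ip1, a membrane-shaping protein of the endoplasmic reticulum (1152 and 258 CPM), Kifc1 (44.4 and 7.04 CPM), Arhgap11a (57.0 and 10.7 CPM) and Lockd (193 and 46.3 CPM) were among the most raised at high G2/M share. Haemoglobin UMIs went the other way, Hbb-bs with 124 and 4493 CPM, but 3 members held 93.8% of the Hbb-bs UMIs. Mt1, a metallothionein, was at 20.9 and 103 CPM, with 37.9% of its UMIs in 3 members. Ccnd1 (348 and 354 CPM) and Fos (1875 and 1936 CPM) were level along this order.

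By regional markers, members were found in every territory examined, at unequal frequency. Sox2, the prosensory transcription factor, reached 2 UMIs in 159 members (53.7%) and in 30.9% of negative cells. The macular genes Tectb, Otol1 and Otop1 together did so also in 159 members (53.7%) and in 37.3%. Oc90, the main otoconial matrix protein made by nonsensory epithelium, reached 3 UMIs in 250 members (84.5%) and in 75.5%. At equal depth this difference was not seen. An Oc90 UMI was found in 84.8% of thinned members, 85.4% of thinned negative cells and 18.3% of thinned negative mesenchymal cells. Crista-type genes (Zpld1 and Msx1) were found in 52 members, Slc26a4, the pendrin anion exchanger, in 19, dark cell-type genes (Kcne1 and Esrrb) in 15, Wnt3, Wnt6 or Sfrp5 in 49, Lmx1a in 28, and 5 members had none of these. Territories overlapped, with 123 of the 159 Sox2 members also Oc90-positive. After thinning, a Sox2 UMI was found in 47.9% (41.9 to 53.9) of members, 34.7% (32.3 to 37.1) of negative cells and 1.87% of negative mesenchymal cells, and the level of Sox2 at matched depth had a ratio of 1.02. Read the other way, a Mki67 or Top2a UMI was found in 16.1% (14.6 to 17.8, 333 of 2063) of all thinned Epcam-positive cells without Col1a2. The UMI floors of the territories were applied before thinning. The share was 21.4% (14.2 to 30.2) in Slc26a4 cells, 20.4% (15.7 to 25.7) in Wnt and Sfrp5 cells, 19.6% (17.0 to 22.4) in macular, 19.3% (16.6 to 22.2) in Sox2, 17.5% in crista-type, 16.6% in Oc90 and 15.2% in hair cell-type cells, and these intervals overlapped. Cells without 2 Sox2 UMIs had 14.2% (12.3 to 16.2). Lower shares stood in Lmx1a cells, with 11% (7.72 to 15.1), and in dark cell-type cells, with 6.94% (3.94 to 11.2, 15 of 216 cells).

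Single genes separated more sharply. Otop1, a proton channel needed for otoconia, marked the highest share, with a Mki67 or Top2a UMI in 34.6% (28.1 to 41.6, 71 of 205) of thinned cells that held at least 2 Otop1 UMIs and in 14.1% (12.5 to 15.8) of the others. Dlk1, a noncanonical Notch ligand, followed with 27.2% (22.1 to 32.9), Gjb2, connexin 26, with 25.9% (21.4 to 30.8), and Wnt6 with 23.6% (18.2 to 29.7). At the other end, the share was 1.28% (0.0325 to 6.94, 1 of 78) in Wnt3 cells, 3.60% (0.990 to 8.97, 4 of 111) in Sfrp5 cells, 3.77% (1.64 to 7.30, 8 of 212) in Pax2 cells, 6.84% (3.00 to 13.0) in Kcne1 cells and in Grem1 cells, and 7.65% (4.25 to 12.5) in Esrrb cells. Wnt6 and Wnt3, ligands of the same family, thus stood at opposite ends. The genes beyond the regional markers in this comparison were chosen after their values were seen. The floor of 2 UMIs of a gene was applied before thinning, so it favours deep cells. Median depths were 21375.5 UMIs for Otop1, 19984 for Gjb2 and 15827 for Dlk1 cells, against 9497.5 for all such epithelial cells. Among genes of low share they were 14978.5 for Pax2, 15847 for Kcne1 and 9038 for Sfrp5. The part of depth in these shares was not tested.

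**Figure D4:**
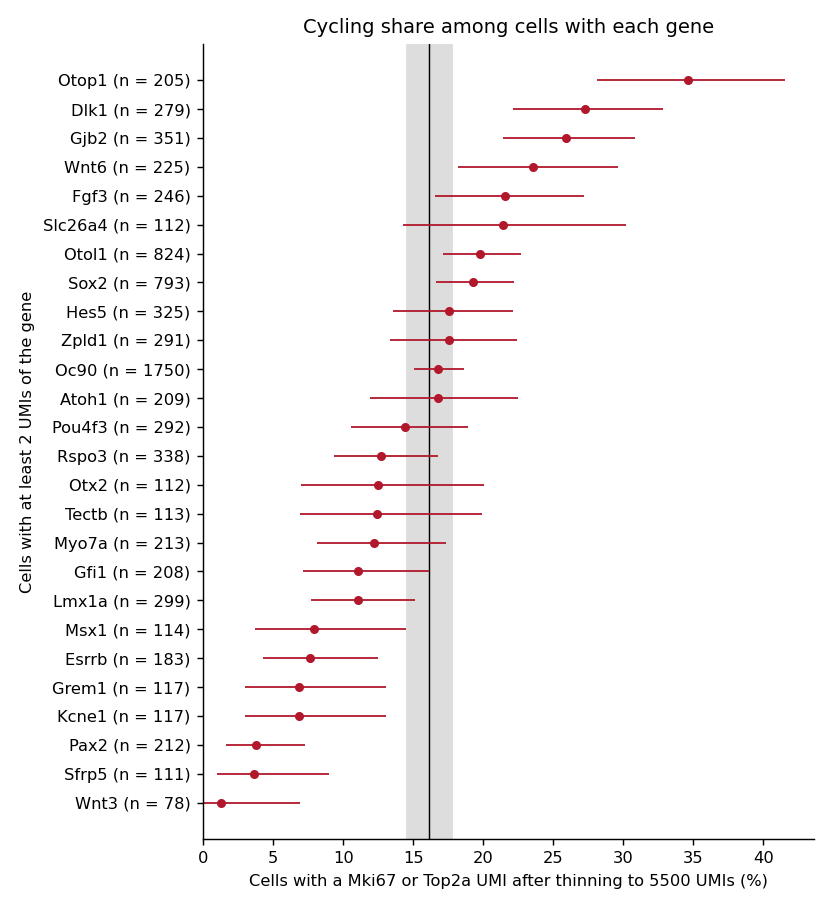
Percentage of cells with a Mki67 or Top2a UMI after thinning to 5500 UMIs (x axis, from 0), among Epcam-positive cells without Col1a2 that hold at least 2 UMIs of each gene (rows), with exact binomial intervals; the line and grey band are all such cells (16.1%, 14.6 to 17.8). Otop1 cells lie at 34.6% and Wnt3, Sfrp5 and Pax2 cells below 4%. The floor of 2 UMIs was applied before thinning.

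Genes of nonsensory epithelium were also low by level. Sfrp5, a secreted Wnt antagonist, had 3.29 CPM (28 UMIs) in members and 109 CPM in negative cells (ratio 0.0302, 0.0201 to 0.0438), and 3 members held 82.1% of the UMIs. Wnt3 had 3 UMIs in members against 699 in negative cells (ratio 0.0123, 0.00253 to 0.0361), whereas Wnt6 was at 37.1 and 45.4 CPM (0.817). Kcne1, a potassium channel subunit of dark cells, was at 6.57 and 33.0 CPM (0.199), and Dcn at 34.4 and 112 CPM (0.307), although Dcn is also a mesenchymal marker. These were the 4 lower genes of 12 tested in the nonsensory list, whose median was -0.62 and in which Clu (0.714), Slc12a2 (0.838) and Slc26a4 (0.811) stayed within 2-fold. Of 28 otic transcription factors 5 were lower and none higher (median -0.20). Esrrb, an orphan receptor of endolymph-secreting cells, was at 12.1 and 46.1 CPM (0.262), Lmx1a at 14.0 and 49.3 CPM (0.283), Pax2 at 7.51 and 30.8 CPM (0.244, 0.186 to 0.315), Otx2 at 6.22 and 20.3 CPM (0.306) and Msx1 at 25.5 and 63.6 CPM (0.400). Of the 217 Msx1 UMIs in members, 3 cells held 82.9%. Sox2 was 1.31-fold higher, Sox9 1.17-fold, Meis2 0.908 and Hmx2 0.815 of the level in negative cells. Between cells of 15000 to 40000 UMIs alone, 133 members and 438 negative cells, Sfrp5 had 2 UMIs in members against 1101 (ratio 0.00529, 0.00064 to 0.0191) and Wnt3 had 0 against 290, a ratio of at most 0.0301 with a floor of 3 UMIs in the members. Pax2, Lmx1a and Esrrb had log2 ratios of -1.62, -1.46 and -1.24 there, and Msx1 had 4 UMIs against 595 (ratio 0.0196, 0.0053 to 0.0504). Kcne1 was at -0.92, short of 2-fold. Other settings also ended calls, since Lmx1a was at -0.08 in Sox2 cells and -0.66 without UMIs of other cell types, and with 20 CPM added Pax2 was at -0.88, Msx1 at -0.88 and Otx2 at -0.62. Dcn was at -0.75 without UMIs of other cell types.

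Of 12 otic matrix and macular genes, Otop1 was 2-fold higher (49.6 and 20.2 CPM, ratio 2.45, 2.15 to 2.80) and Zpld1, a zona pellucida domain protein of the cupula, 2-fold lower (298 and 698 CPM, 0.427), with a list median of 0.02. Otop1 had a log2 ratio of 1.13 at matched depth and of 0.57 when each cell counted equally. Zpld1 rested on few cells, since 3 members held 42.7% of its UMIs, and its log2 ratio of -1.21 was 0.07 among cells without UMIs of 4 further mesenchymal genes. Oc90 was at 5797 and 7256 CPM (0.799), Otol1, an otoconial collagen, at 463 and 320 CPM (1.44), Otog, otogelin, at 271 and 246 CPM (1.10) and Sparcl1 at 58.3 and 116 CPM (0.502). Tectb, a tectorin of the macula, had 70.2 and 107 CPM (0.653), with 72.1% of its UMIs in 3 members, and 0.0351 of the level of negative cells at matched depth. It was found in 3.90% of thinned members and 5.58% of thinned negative cells.

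Hair cell differentiation genes were present in the members at lower levels. None of 20 tested passed 2-fold, and all had log2 ratios below 0, from -0.06 to -0.94 (median -0.47, over all genes -0.08). At matched depth several passed 2-fold, with log2 ratios of -1.61 for Pvalb, -1.44 for Otof, -1.25 for Gfi1, -1.18 for Cib2, -1.15 for Pou4f3 and -1.06 for Pcdh15, and Atoh1 was at -0.84. Median depths still differed there, at 24247 and 19411.5 UMIs. Members with hair cell-type UMIs had a median of 48759 UMIs, above the window's limit of 40000, and such negative cells 15367.5. The window thus selects these cells unequally in the 2 groups, and its part in the larger ratios was not tested. Atoh1, the factor that starts HC differentiation, was at 25.9 and 29.2 CPM (0.889, 0.761 to 1.04), Pou4f3 at 51.5 and 75 CPM (0.686), Gfi1 at 23.6 and 43.2 CPM (0.546), and Otof, otoferlin of the ribbon synapse, at 45.1 and 90.8 CPM (0.496). Pvalb (0.678), Myo6 (0.755), Cib2 (0.739), Srrm4 (0.537) and Pcdh15 (0.555), genes of the hair bundle and of HC splicing and calcium buffering, and Hes6 (0.955) were also lower. Atoh1 UMIs were found in 22.6% of members and 11% of negative cells before thinning and in 4.96% (2.74 to 8.19) and 8.43% (7.10 to 9.91) after it, so the order of the shares turned with depth (0.216% in negative mesenchymal cells). Thinned shares of Pou4f3 were 12.4% (8.80 to 16.8) and 11.9% (10.4 to 13.6), of Gfi1 5.67% and 8.43%, and of Myo7a 7.45% and 9.38%. The intervals of the 2 groups overlapped for each of these genes.

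At least 2 UMIs of Atoh1, Pou4f3 and Gfi1 together were held by 63 members (21.3%), 62 of which also had Sox2. These 63 had a median of 48759 UMIs, compared with 17305 in the other 233 members and 15367.5 in the 232 negative cells of the same kind, and 29 of them (46.0%) lay among the highest doublet scores, compared with 22.3% and 16.4%. Their level of Cdk1 was 121 CPM. Levels of the selecting genes and of Sox2 are not compared, since the same floor of UMIs admits lower levels in deeper cells. Whether they are single cells with both programmes or pairs of cells was not tested. Neuronal genes were near their floor: of 14 genes 5 were tested and none passed 2-fold (median -0.10), Isl1, which sensory epithelium also makes, was at 136 and 143 CPM, Tubb3, Elavl4, Nhlh1 and Snap25 were below 8 CPM in both groups, and Neurod1 was found in 0 of 282 thinned members, which allows a share of cells with a UMI of up to 1.30% by the exact interval.

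Lists of the signalling pathways held few genes past 2-fold. Over all tested genes 2.23% were 2-fold higher and 0.685% lower, so small counts in lists of this size do not set these pathways apart. In the Notch list 1 of 21 was 2-fold higher and none lower (median 0.14). This was Dlk1, at 214 and 100 CPM (2.13, 2.00 to 2.26), but on the log2 scale at 0.46 when each cell counted equally, at 0.69 at matched depth and at 0.11 without UMIs of other cell types. Hes1 (1.10), Hey1 (1.18) and Heyl (1.67), targets of Notch, were level or higher, and Hes5, a target found in SCs, was at 168 and 251 CPM (0.669, 39.7% of its UMIs in 3 members) and past 2-fold lower at matched depth (ratio 0.353), while Numbl was at 0.591. In the Wnt list 2 of 32 were lower (median 0.00): Rspo3, an R-spondin that amplifies Wnt signals, at 42.7 and 178 CPM (0.239) and Wnt4 at 14.5 and 42.0 CPM (0.347). In Sox2 cells these were at log2 -0.71 and -0.36, and Wnt4 also fell short of 2-fold with 20 CPM added (-0.84) and with cells weighted equally (-0.89). Rspo2 (0.474) and Tcf7l2 (0.657) were also lower, and Sfrp1 (1.06), Ctnnb1 (1.03), Lrp6 (0.906) and Fzd3 (0.948) were level.

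In the BMP list Grem1, a secreted BMP antagonist, was at 5.05 and 30.6 CPM (0.165, 0.118 to 0.224). It was the only 1 of 25 past 2-fold (median -0.23), where 0.685% of all tested genes were lower and 2.23% higher. The BMP targets Id1 (388 and 464 CPM, 0.836), Id2 (0.801), Id3 (642 and 804 CPM, 0.798) and Id4 (0.686) had ratios below 1, but without UMIs of other cell types Id1 (log2 0.33) and Id3 (0.26) turned, without 4 further mesenchymal genes Id1, Id2 and Id3 were level (0.01, 0.01 and 0.04), and at matched depth Id4 was past 2-fold lower (-1.32). Ratios below 1 were also found for Fstl1 (0.818) and the receptor Bmpr1b (0.649), and the antagonist Fst was at 6.22 and 2.66 CPM (2.34, below 2-fold with 5 CPM added). None of 19 FGF genes passed 2-fold (median 0.00), with Fgf3 at 42.8 and 32.4 CPM (1.32), Spry4 at 1.65, Spry2 at 1.21, Fgfrl1 at 1.14, Dusp6 at 0.891, Fgf8, a striolar and HC ligand, at 0.718 and Fgfr2 at 0.577. Under the other settings the log2 ratio of Fgf8 reached down to -2.87.

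None passed 2-fold in the IGF system (14 tested, median -0.04), the Hippo pathway (15, median -0.15), AP-1 and dissociation stress genes (16, median -0.22), p53 targets (11, median -0.24) or epithelial junction genes (15, median -0.12). With 2.23% of all tested genes higher and 0.685% lower, this does not set lists of this size apart. Under the other settings some genes did pass, with log2 ratios down to -1.81 for Cdkn1a, -1.33 for Igfbp3 and -1.13 for Krt19. Igfbp5 was at 340 and 343 CPM, Igfbp2 at 297 and 390 CPM, Igfbp4 at 236 and 184 CPM, and Igfbp3 (0.751), Irs2 (0.748) and Igf1 (0.504) were lower. The YAP target Cyr61 was at 333 and 549 CPM (0.607), Ctgf at 120 and 111 CPM, and Yap1 (0.810), Wwtr1 (0.760) and Ajuba (0.734) were lower, with Tead2 (1.02) and Vgll4 (0.898) level. Fos, the AP-1 subunit, was at 1931 and 2277 CPM (0.848), Jun at 1024 and 1453 CPM (0.705), Junb at 0.658, Ier2 at 0.725, Atf3 at 0.655, Zfp36 at 0.673, Dusp1 at 0.694 and the chaperone Hspa8 at 0.935. Immediate early genes also respond to enzymatic dissociation, whose part was not tested. Cdkn1a, p21, was at 93.5 and 132 CPM (0.709), Trp53 at 1.03, Bax at 0.985 and Mdm2 at 0.823, with Phlda3 (0.717), Trp53inp1 (0.691) and Sesn2 (0.588) lower. Gjb2 was at 81.2 and 45.2 CPM (1.80) and Gjb6, its partner connexin, at 1.43, while Cldn3 (0.860), Cldn4 (0.740), Krt8 (1.02), Krt18 (0.988) and Krt19 (0.443) were level or lower. In the Myc family list 1 of 8 was higher (median 0.02). Mxd3, a MAX partner made in S phase, was at 29.0 and 0.940 CPM (30.8-fold), its relative Mxd4 at 55.0 and 96.3 CPM (0.572), Mycn at 13.4 and 9.81 CPM (1.36), Mycl at 0.898 and Mxi1 at 0.865.

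Both groups were then limited to cells with at least 2 Sox2 UMIs, 159 members and 644 negative cells. The S phase list had 26 and the G2/M list 40 genes at least 2-fold higher, with Cdk1 at 160 and 5.46 CPM (29.4-fold) and Ccnb1 at 56.7 and 1.49 CPM (38.1-fold). Ccnd1 was at 403 and 264 CPM (1.52-fold), while Cdkn1c, 0.610 over all members, was at 301 and 341 CPM (0.884). Hes5 was at 248 and 578 CPM (0.429) and Atoh1 at 38.3 and 67.0 CPM (0.572). The order of Atoh1 differed by territory, with ratios of 0.644 in crista-type, 1.68 (1.38 to 2.04) in macular, 2.14 (1.75 to 2.62) in Oc90, 3.54 (1.19 to 10.3) in Lmx1a, 4.71 (1.31 to 20.9) in Wnt and Sfrp5 and 5.61 (1.94 to 19.7) in Slc26a4 cells. The last 3 rest on 8, 9 and 15 UMIs in members. For Cdkn1c the ratios outside the Sox2 set were mostly near that over all members. They were 0.842 in crista-type, 0.628 in macular, 0.624 in Wnt and Sfrp5, 0.594 in Lmx1a, 0.590 in Oc90 and 0.586 in Slc26a4 cells. Of the 49 Wnt and Sfrp5 members 47 held at least 2 UMIs of Wnt6. Many negative cells of that set held Sfrp5 or Wnt3, so its ratios compare unlike cells. The sets are chosen by UMI floors, which admit lower levels in the deeper members. Sox11, a precursor factor (chosen after its value was seen), was at 162 and 109 CPM (1.48). Across territories Cdk1 was between 17.5-fold (Slc26a4 cells) and 29.7-fold (Wnt and Sfrp5 cells) higher and Ccnb1 between 27.4-fold and 108-fold, the latter against 2 UMIs (29.1 to 901), and the intervals of the Cdk1 ratios overlapped in all 7 territories with values.

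The cycling mesenchymal cells of the same library, 627 cells with Col1a2 of at least 2, no Epcam and the same floor, were set against 3879 negative mesenchymal cells. There 482 of 11222 tested genes (4.3%) were 2-fold higher and 66 (0.588%) lower. Of 10506 genes tested in both tissues, 259 were 2-fold higher in the epithelial and 424 in the mesenchymal comparison, and 243 in both, which is 93.8% of the first and 57.3% of the second. Ratios were smaller in epithelium, with medians of 1.48 and 1.86 for the S phase list, 2.48 and 3.35 for the G2/M list and 2.71 and 3.61 for the spindle list, and the mesenchymal members were less deep (median 11369 UMIs). Bub3 was level in the main epithelial comparison, with log2 ratios up to 0.89 under the other settings. In mesenchyme it was at 231 and 71.0 CPM (3.25-fold, 3.05 to 3.47). Its level in negative epithelial cells was 559 CPM. Tubb4b was 1.66-fold and 4.64-fold higher, and Hist1h2ap 14.7-fold and 99.5-fold. Gjb2 had log2 ratios of 0.78 in epithelium and -1.68 in mesenchyme, Dlk1 1.05 and -0.49, Ccnd1 0.58 and 0.00, and Ptgds, prostaglandin D synthase, -1.58 and 0.90. Others that differed most were Npy (-2.16 and 1.46), Sostdc1 (-1.30 and 1.38), Mlf1 (-0.53 and 1.86), the melanocyte gene Dct (-2.03 and 1.39), the endothelial gene Kdr (-0.81 and 1.95), the embryonic globin Hba-x (-3.41 and -0.47) and the chemokine Ccl4 (2.19 and -0.78), of whose 179 UMIs in members 1 cell held 156.

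**Figure D5:**
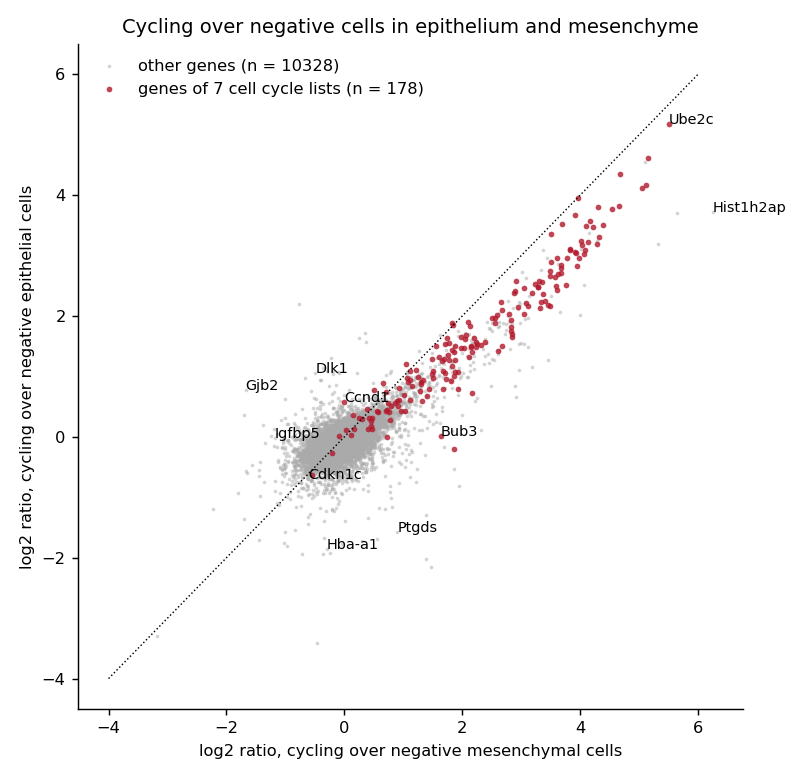
Each point is 1 of 10506 genes tested in both tissues, with its log2 ratio of cycling over negative cells in mesenchyme (x axis) and in epithelium (y axis), 5 CPM added, and the dotted line marks equal ratios. Red points are 178 genes of 7 cell cycle lists and most lie below the line, while Bub3 is near 0 in epithelium and at 1.63 in mesenchyme.

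Among the genes with the largest ratio downward, apart from those above, were Mt3, a metallothionein (15.0 and 72.1 CPM, 0.208), Enpep, a membrane aminopeptidase (0.231), Lrp2, megalin (20.9 and 83.3 CPM, 0.251), Col14a1 (0.253), Bpifb3 (0.246), Dach1, a nuclear cofactor (18.7 and 70.1 CPM, 0.266), and Ptgds (169 and 513 CPM, 0.329). Hba-a1 was at 343 and 1254 CPM (0.274), Hba-a2 at 0.261 and Hbb-bt at 0.288. Without cells of over 1% haemoglobin UMIs or at least 10 immune UMIs, the log2 ratio of Hba-a1 was -0.26 in place of -1.85, whereas Mt3 (-1.95), Enpep (-1.77), Lrp2 (-1.74) and Dach1 (-1.69) kept theirs. Within Sox2 cells Mt3 was at 0.05 and Lrp2 at -0.36, against -1.18 for Dach1.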

How the data were processed

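Each deposited matrix holds unnormalized UMI counts, made by the authors with Cell Ranger 3.1.0. The methods align to GRCm39, the submitters' processing notes name both mm10 and GRCm39 along with Seurat 4.1.1, and which build underlies these counts was not settled. The counts carry no coordinates, and positions here come from GENCODE M21 and RefSeq on GRCm38. The E14 library held 122892080 UMIs in 15636 barcodes. A barcode was kept if it had 500 or more genes, 1000 or more UMIs and no more than 15% of UMIs from mitochondrial genes, and no doublets were removed. Doublet scores came from Scrublet in scanpy 1.11.5, and the highest 0.8% per 1000 barcodes were marked. UMIs were summed per group and divided by the group total to give CPM, and its 95% interval is the exact Poisson one. The interval of a ratio is exact conditional binomial and that of a share exact binomial (Clopper-Pearson), and log2 ratios had 5 CPM added. A gene counted as tested with at least 100 UMIs over both groups. Thinning drew 5500 UMIs per cell without replacement, and shallower cells were left out. The members, the lists and the territories were chosen with earlier results of these data known. From each list the 4 genes with the highest level and the 4 with the largest ratio were named, with the 12 largest ratios each way among genes found in at least 10% of cells, the 12 largest upward off the cell cycle lists, the regional markers, 12 genes along the G2/M order and the 10 that differed most from mesenchyme. Some genes that this rule names are not reported here. The steps were tested on simulated data. Alternatives changed the rule, filters, doublets, depth, scaling, added value and low-count limit, and 2 were chosen after seeing the data, namely depth matching and the limit on immune and haemoglobin UMIs. Python 3.11.15, numpy 2.4.6, scipy 1.17.1, pandas 2.3.3 and matplotlib 3.10.9 were used.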

Additional observations from a re-analysis of the deposited data

Results flagged for a closer look

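In the P2 library, which the comparisons above do not use, 35 cells met the same rule. They were 1.01% (0.707 to 1.41) of the P2 cells with Epcam and no Col1a2, against 11.2% at E14, and had a median of 23040 UMIs. Their Cdk1 level was 102 CPM against 1.98 CPM in the P2 cells without Mki67 or Top2a, and their Ccnb1 level 26.5 against 0.709 CPM. With 1 library per age the difference between ages was not tested and age cannot be told apart from library.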

How the results depend on the processing

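The number of members was 172 without Col1a1, Col3a1, Postn or Dcn UMIs, 36 without UMIs of markers of other cell types, 159 with Sox2 and 133 at 15000 to 40000 UMIs. The genes at least 2-fold higher were 264 as reported, 164 without UMIs of other cell types and 136 with 20 CPM added. The genes at least 2-fold lower, 81 as reported, were 212 without the 4 mesenchymal genes, 491 without UMIs of other cell types, 212 without the highest doublet scores, 268 with 1 CPM added, 30 with 20 CPM added, 123 in Sox2 cells and 220 at matched depth. S phase genes 2-fold higher, 32 as reported, were 14 without UMIs of other cell types and 18 with 20 CPM added, and G2/M genes, 43 as reported, were 18 without UMIs of other cell types. The setting without UMIs of other cell types tested 5437 genes in place of 11824. The cause of these changes was not tested. Of 88 named genes at least 2-fold apart, the direction turned for Zpld1 without the 4 mesenchymal genes (log2 0.072) and without UMIs of other cell types (0.0091), and for Mt3 (0.051) and Sostdc1 (0.11) in Sox2 cells. No paired analysis was possible because each age has 1 library. Depth limits genes of few UMIs, and counting intervals leave out the spread between embryos.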
